A study of Mus musculus with 16 samples.

Results

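The skeletal muscle contractile genes are 40 genes for sarcomere proteins, calcium handling and muscle energy supply, measured here in 16 mouse melanomas. They were chosen by name: a probe belonged to the set where the array annotation gave its gene as one of the 40, which was so for 70 probes on 79 spots of the 43379 that were no control. Of the 40 genes, 14 are known from fast fibres, 6 from slow fibres and 20 from both kinds or without a fixed kind, called shared below. The array names 30010 genes in all.

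The tumours were B16-BL6 melanomas, a transplantable pigmented mouse melanoma line, from male C57BL/6J mice aged 8 weeks, stored in RNAlater. There were 4 groups of 4 tumours: control, ALA (5-aminolevulinic acid at 50 mg/kg, given locally), Xray (fractionated irradiation) and ALA+Xray (irradiated after ALA). ALA is a precursor of haem that cells turn into protoporphyrin, and the series title sets out its effects on radiotherapy as the subject. Each tumour gave 1 Cy3-labelled RNA sample on a 1-colour Agilent array. The 4 slides each carried 1 array of every group, and a tumour's replicate number was also its slide number; a group kept its position on the slide, so position and group cannot be told apart. All groups carry the same line, and no muscle sample was among them.

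Skeletal muscle fibres contract when myosin heavy chains pull on actin filaments, after calcium released from the sarcoplasmic reticulum binds troponin. Fast and slow fibres build the same machinery from different isoforms: fast fibres use Myh4, Myh1 and Myh2 (the IIb, IIx and IIa heavy chains) with fast troponins and light chains, and slow fibres use Myh7 with slow ones. Limb muscles of the mouse are rich in fast fibres. Melanoma cells do not form sarcomeres, and the transcripts measured here come from whole tumour pieces, host cells included.

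The value of a gene on an array, its level, is the log2 processed signal minus the 75th percentile of that array, so that 0 is a fairly bright spot and 1 unit is a doubling. A probe counts as detected where the scanner software marked it as well above background. Testing was limited to genes detected in 4 tumours or more, each represented by its brightest probe on average; a gene counts as detected where any of its probes was, and where single tumours are named below, detection is that of the printed probe; values below detection are printed as measured and carry no order. Levels are compared here for each gene with itself across tumours, not between genes.

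Of the 40 genes, 36 passed this filter: 13 of 14 fast, 4 of 6 slow and 19 of 20 shared genes. The other 4 were Casq1, the calsequestrin of fast fibres, and Mybpc1, a myosin-binding protein, each detected on 2 arrays, and the slow or cardiac isoforms Myl2 and Tnnc1, detected on 0. Detection on all 16 arrays was reached by 10 genes: Atp2a1, Des, Eno3, Myl3, Mylpf, Pygm, Ryr1, Tnnc2, Tnnt1 and Tpm2. The 75th percentile was an intensity of 213 to 521, between 44.3% and 53.6% of the spots on an array were detected, and no array had a saturated spot (0 in all). The tissue label held: all 8 pigment cell markers (Tyr, Tyrp1, Dct, Pmel, Mlana, Slc45a2, Mitf and Sox10) passed the filter, and their median level differed among tumours by 0.53 log2 units from lowest to highest.

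The muscle genes ranged from mostly undetected to bright between tumours of the same group. Of the 40 genes, 12, 13, 37 and 36 were detected in control tumours 1 to 4. In ALA tumours 13, 23, 16 and 19 were detected, in Xray tumours 32, 14, 34 and 20, and in ALA+Xray tumours 14, 34, 38 and 35. Within each group except ALA some tumours had most of the genes and others had about as few as the emptiest array, and the 4 groups overlapped. The signal of an array was also summed over the 15399 genes of the array past the filter, with 1 probe for each gene. The share held by the 36 muscle genes past the filter ran from 0.0130% in ALA+Xray 1 to 1.28% in ALA+Xray 3, with 0.462% in control 3.

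**Figure D1:**
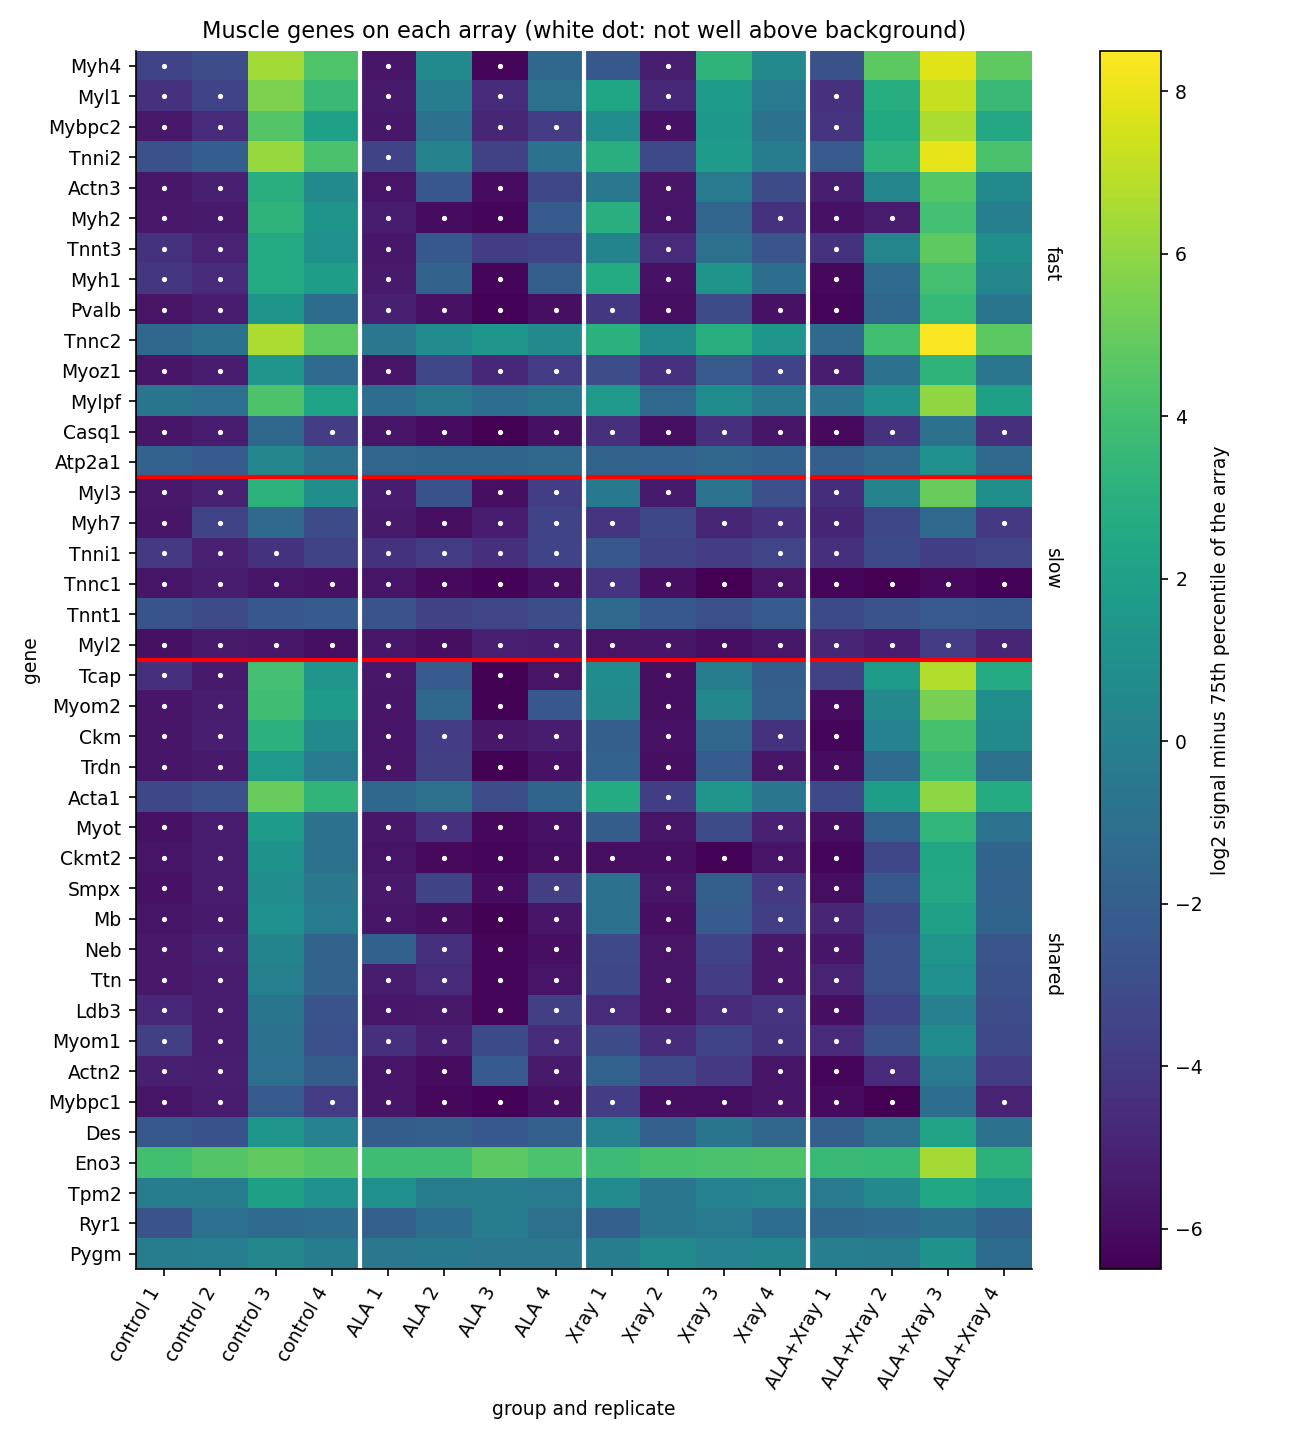
Level (log2 signal minus the 75th percentile of the array) of the 40 muscle genes, in rows grouped as fast, slow and shared, on the 16 arrays in columns; a white dot marks a gene that was not well above background there. ALA+Xray 3, control 3 and control 4 are bright for most fast and shared genes. Control 1, control 2, ALA 1, ALA 3, Xray 2 and ALA+Xray 1 are dark for most of them.

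A muscle level was formed for each tumour as the median, over the 36 genes, of the level minus that gene's own mean over the 16 arrays, with values below the dimmest detected signal of an array set to it. It was -1.33, -1.10, 3.63 and 1.64 in control, -1.10, -0.98, -1.77 and -1.20 in ALA, 0.89, -1.33, 0.17 and -0.71 in Xray, and -1.65, 0.30, 5.22 and 1.31 in ALA+Xray tumours. Values above 1 were reached only in control and ALA+Xray, and each of these groups also held tumours as low as the ALA tumours, so the groups overlapped. The group means were 0.71 ± 2.37 in control, -1.26 ± 0.35 in ALA, -0.25 ± 0.98 in Xray and 1.29 ± 2.89 in ALA+Xray (SD, n = 4). Single tumours carried these means: the ALA+Xray mean was 0.25 without ALA+Xray 3 and 2.17 without ALA+Xray 1, and the control mean was -0.032 without control 3 and 1.29 and 1.22 without control 1 and 2. With 1 tumour left out, the Xray mean ran from -0.58 without Xray 1 to 0.059 without ALA+Xray 3, since each gene's mean over the arrays is then taken anew. From lowest to highest tumour the level spread 31.2-fold in control, 1.72-fold in ALA, 4.66-fold in Xray and 116-fold in ALA+Xray. Fewer fibres in a sample and less muscle RNA per fibre cannot be told apart in such bulk RNA.

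Most of the genes were high in the same tumours. Of the 36, 32 were highest in ALA+Xray 3. Control 3 was the highest control for 33 genes. Control 3 exceeded control 4 in 33 of the 35 genes detected on both arrays, by a median of 1.97, with an interquartile range of 1.34 to 2.11. ALA+Xray 3 exceeded ALA+Xray 4 in 34 of 35 genes by a median of 3.76, and control 3 in 34 of 35 genes by a median of 1.31.

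The classes differed in range. From lowest to highest array, the median range was 10.28 log2 units over the 13 fast genes, 7.65 over the 19 shared genes and 3.64 over the 4 slow genes, beside 8.81 over all 36. Of the slow genes, Myl3 ranged over 10.90, while Tnni1, Myh7 and Tnnt1 were dim, with highest levels of -2.45, -1.33 and -1.32. The dimmest detected signal of an array lay between -4.39 and -3.36. How far dimness narrows a range was not tested. A range of more than 8 was found for 11 fast, 9 shared and 1 slow gene. The widest were Myh4 (14.04), Tcap (13.19), Myl1 (12.63), Mybpc2 (12.43), Myom2 (11.82) and Tnni2 (11.53). Since the lowest values were often below detection, the measured spread is better stated as a bound: at least 3789-fold for Myh4, 1947-fold for Tcap and 2608-fold for Myl1, while Tnni2, detected on 15 arrays, spanned 2956-fold. The 3 narrowest were Tnnt1 (2.21), Pygm (2.38) and Ryr1 (2.56).

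**Figure D2:**
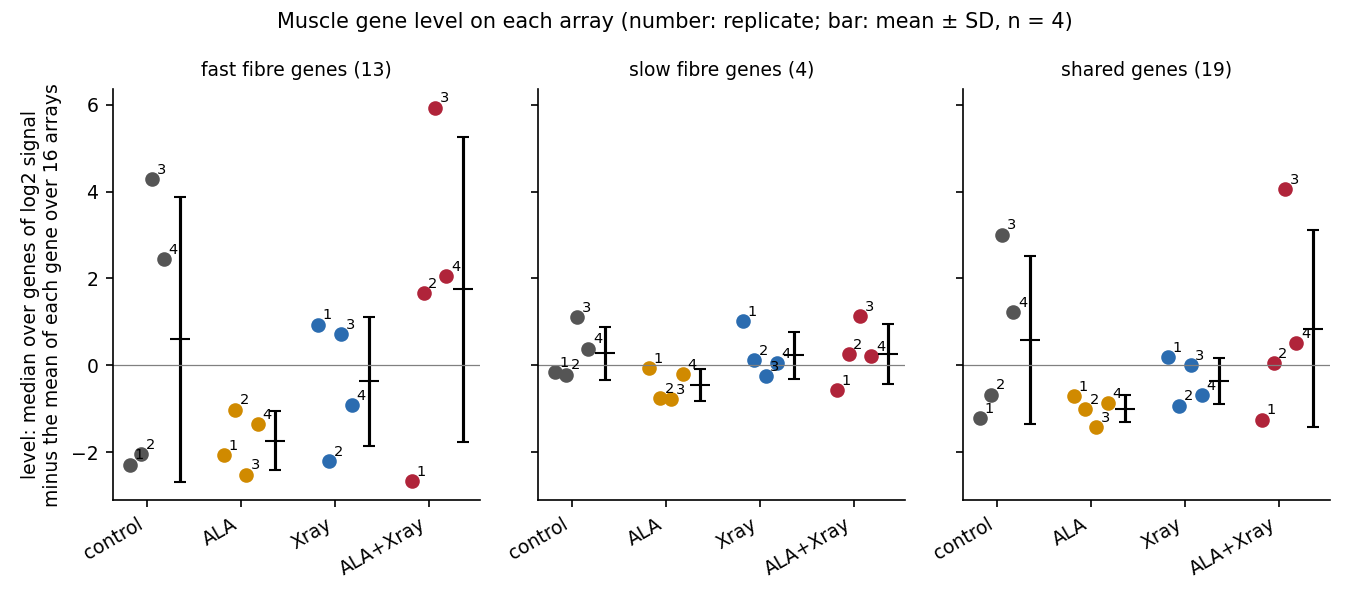
Level of the fast (13), slow (4) and shared (19) genes in each tumour, as the median over genes of the log2 signal minus the gene's mean over 16 arrays; points are tumours with their replicate number, and bars give the mean ± SD (n = 4). The fast level runs from -2.67 in ALA+Xray 1 to 5.93 in ALA+Xray 3, and the slow level from -0.78 in ALA 3 to 1.13 in ALA+Xray 3.

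The myosin heavy chains did not all follow this common order. Their upstream sequences are shown first because 3 of them, Myh1, Myh2 and Myh4, lie side by side on chromosome 11, and because Acta1 and Ckm followed the common pattern while Tnnt1 had the narrowest range. The sequences are the 250 bases before the annotated start, 5′ to 3′ on the strand of the gene, from RefSeq on GRCm38.p6. Capitals mark matches to the E-box CANNTG (bound by MyoD-type factors), the MEF2 site and the CArG box (bound by serum response factor), searched on both strands; none of the marked matches overlap. Myh4 lies at chr11:67237562-67237811, plus strand; Myh1 at chr11:67199852-67200101, plus strand; Myh2 at chr11:67170777-67171026, plus strand; Acta1 at chr8:123894776-123895025, minus strand; Ckm at chr7:19410844-19411093, plus strand; Tnnt1 at chr7:4515976-4516225, minus strand.
Myh4: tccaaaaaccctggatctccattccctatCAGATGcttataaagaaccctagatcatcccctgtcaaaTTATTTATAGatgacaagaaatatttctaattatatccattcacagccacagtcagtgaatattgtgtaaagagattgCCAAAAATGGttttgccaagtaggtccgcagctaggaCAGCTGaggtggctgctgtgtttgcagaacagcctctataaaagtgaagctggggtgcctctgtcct
Myh1: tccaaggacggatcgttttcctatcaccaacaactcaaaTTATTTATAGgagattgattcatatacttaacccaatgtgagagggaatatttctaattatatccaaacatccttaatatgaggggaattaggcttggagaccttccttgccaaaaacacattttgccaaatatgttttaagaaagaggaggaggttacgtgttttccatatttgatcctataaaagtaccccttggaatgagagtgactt
Myh2: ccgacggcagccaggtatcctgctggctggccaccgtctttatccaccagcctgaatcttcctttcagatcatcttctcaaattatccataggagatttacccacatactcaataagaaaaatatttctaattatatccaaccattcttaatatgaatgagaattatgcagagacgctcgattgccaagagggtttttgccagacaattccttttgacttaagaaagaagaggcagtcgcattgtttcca
Acta1: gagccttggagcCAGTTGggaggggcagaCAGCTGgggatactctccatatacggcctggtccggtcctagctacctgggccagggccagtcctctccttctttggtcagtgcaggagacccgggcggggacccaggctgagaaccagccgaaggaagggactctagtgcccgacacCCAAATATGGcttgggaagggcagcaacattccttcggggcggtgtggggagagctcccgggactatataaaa
Ckm: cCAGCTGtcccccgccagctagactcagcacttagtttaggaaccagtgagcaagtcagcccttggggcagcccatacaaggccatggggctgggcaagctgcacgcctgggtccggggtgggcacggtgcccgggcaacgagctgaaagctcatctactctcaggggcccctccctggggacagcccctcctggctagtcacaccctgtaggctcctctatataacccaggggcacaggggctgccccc
Tnnt1: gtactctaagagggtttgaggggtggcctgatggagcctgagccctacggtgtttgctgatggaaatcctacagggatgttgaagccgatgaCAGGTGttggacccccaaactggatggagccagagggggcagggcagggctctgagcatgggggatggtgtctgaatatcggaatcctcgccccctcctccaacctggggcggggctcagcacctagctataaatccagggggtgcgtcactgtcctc

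In these windows Myh4 had 2 E-boxes, 1 MEF2 site and 1 CArG box, Myh1 had 1 MEF2 site, and Myh2 had 0 matches of the 3 motifs. Acta1 had 2 E-boxes and 1 CArG box, and Ckm and Tnnt1 had 1 E-box each. Promoter sequences matched 31 of the 40 genes. An E-box stood in 83.9% of those 31 and in 69.3% of all 27025 genes with a sequence. A MEF2 site stood in 12.9% against 3.42%, and a CArG box in 16.1% against 1.62%. The CArG boxes were upstream of Acta1, Ldb3, Myh4, Myl3 and Myom1, and the MEF2 sites upstream of Myh1, Myh4, Pvalb and Ttn. TATAAA, searched on the gene's strand only, stood in 12.9% against 8.94%. A match describes the letters and is no evidence of binding.

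Myh4 encodes the IIb heavy chain of the fastest fibres. Its level was -3.50, -2.95, 6.44 and 4.39 in control, -5.57, 0.70, -6.30 and -1.41 in ALA, -2.39, -5.24, 3.27 and 0.54 in Xray and -2.75, 4.75, 7.74 and 4.75 in ALA+Xray tumours. ALA+Xray 3 and control 3 were highest, control 1, ALA 1, ALA 3 and Xray 2 were below detection, and every group overlapped with every other.

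Myh1 encodes the IIx heavy chain. Its level was -4.14, -4.65, 2.69 and 1.83 in control, -5.41, -1.70, -6.21 and -1.95 in ALA, 2.74, -5.77, 1.29 and -1.10 in Xray and -6.17, -1.25, 4.01 and 0.37 in ALA+Xray tumours. Here Xray 1 stood beside control 3, below ALA+Xray 3 alone, while control 1, control 2, ALA 1, ALA 3, Xray 2 and ALA+Xray 1 were below detection.

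Myh2 encodes the IIa heavy chain. Its level was -5.46, -5.39, 3.24 and 1.24 in control, -5.38, -5.98, -6.31 and -2.16 in ALA, 2.88, -5.67, -1.60 and -4.30 in Xray and -5.79, -5.36, 4.04 and -0.013 in ALA+Xray tumours. This probe was detected in 7 tumours: control 3 and 4, ALA 4, Xray 1 and 3, and ALA+Xray 3 and 4; in ALA 1 another probe of the gene was detected.

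Myh7 encodes the slow heavy chain, which heart muscle also uses. Its level was -5.58, -3.43, -1.33 and -3.04 in control, -5.42, -5.95, -5.28 and -3.42 in ALA, -4.17, -3.23, -4.87 and -4.33 in Xray and -4.92, -3.24, -1.37 and -4.04 in ALA+Xray tumours. It was detected in 5 tumours, control 3 and 4, Xray 2, and ALA+Xray 2 and 3, and its highest array was control 3, level with ALA+Xray 3.

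**Figure D3:**
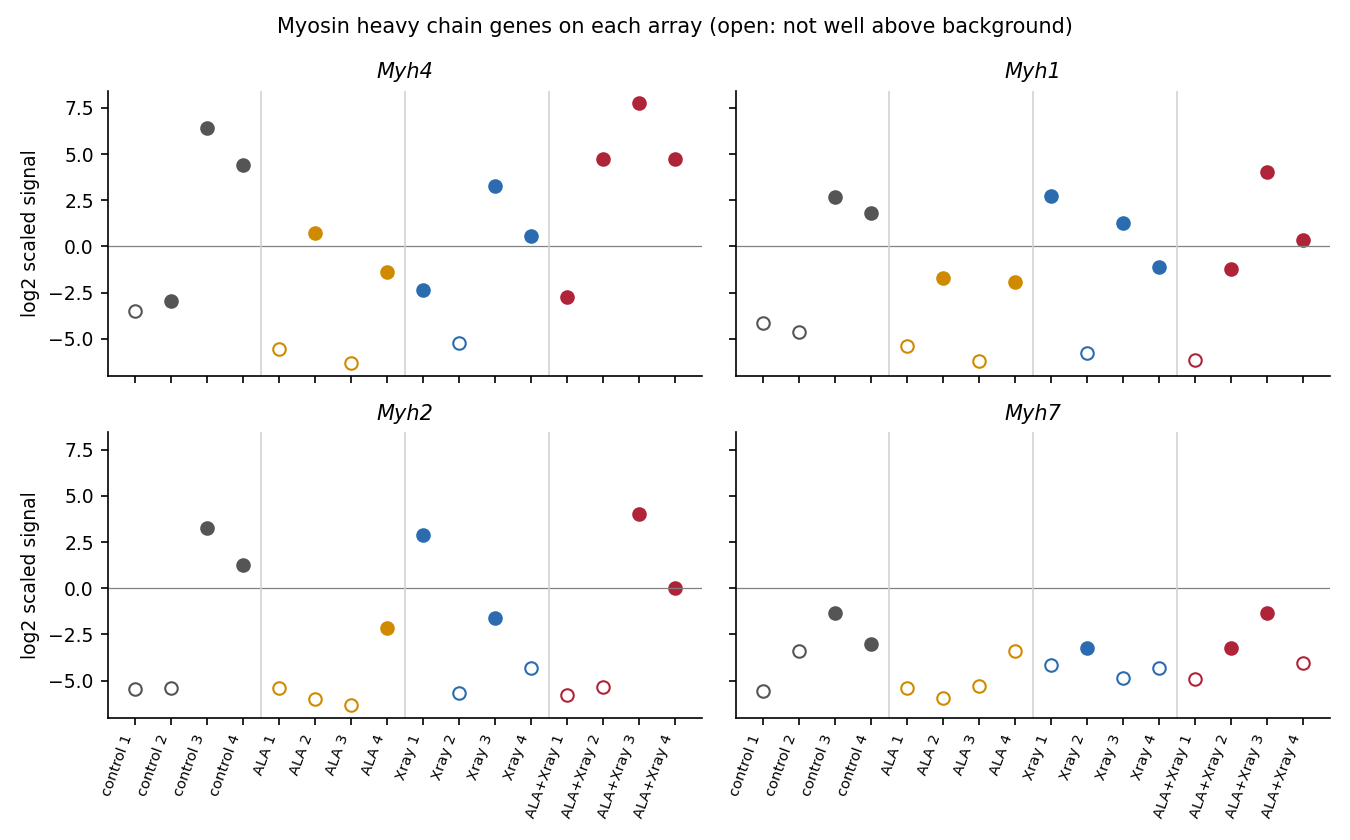
Level (log2 scaled signal) of Myh4, Myh1, Myh2 and Myh7 on the 16 arrays, coloured by group; open points were not well above background. Xray 1 is high for Myh1 (2.74) and Myh2 (2.88) and low for Myh4 (-2.39), and ALA+Xray 2 is high for Myh4 (4.75) with Myh2 below detection.

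The 3 fast heavy chains did not keep one proportion among tumours; these pairs of tumours were chosen after their values were seen. In Xray 1, Myh2 lay 1.16 and Myh1 1.27 log2 units under their values in ALA+Xray 3, and Myh4 lay 10.13 under its own. In ALA+Xray 2 it was Myh4 that lay nearest: Myh4 lay 3.00 under its value in ALA+Xray 3, Myh1 lay 5.25 under, and Myh2 was below detection. In ALA 2 Myh4 was at 0.70 and Myh2 was also below detection.

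Set directly against each other, Xray 1 exceeded Xray 3 for Myh2 by 4.48 (22.2-fold) and fell short for Myh4 by 5.65 (Xray 3 was 50.3-fold higher). Over the 32 genes detected in both tumours the median of Xray 1 minus Xray 3 was 0.56, with 23 genes higher and 9 lower. Other genes higher in Xray 1 were Actn2 (2.23), Tnnt1 (1.54), Myh1 (1.45), Acta1 (1.40), Tnni1 (1.34) and Mb (1.31). Ryr1 (-1.50, by its brightest probe) was lower there. Pvalb, which is not among the 32, was below detection in Xray 1 and detected in Xray 3. These 2 tumours had the same treatment, so the heavy chains differed within 1 group.

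Separate probes of these genes differed in the same direction. The probe that stands for Myh4, at chr11:67073834-67073893 (mm9, as in the array files, whose coordinates are not comparable with the GRCm38.p6 ones), differed by -5.65 between Xray 1 and Xray 3, and a second one at chr11:67072804-67072863 by -6.15. The 3 probes of Myh2 differed by 4.48, 4.54 and 3.26; the last was below detection in Xray 3. No run of more than 12 of 60 bases was shared between probes of Myh1, Myh2 and Myh4. How far a probe also binds another heavy chain's transcript was not tested.

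Among the calcium-binding subunits of troponin, Tnnc2 is the fast form. Its level was -1.48, -0.88, 6.68 and 4.64 in control, -0.47, 0.72, 1.39 and 0.58 in ALA, 3.08, 0.67, 2.91 and 1.38 in Xray and -1.29, 3.98, 8.40 and 4.74 in ALA+Xray tumours. It was detected in all 16 tumours, ALA+Xray 3 and control 3 were highest, and the lowest control and ALA+Xray tumours lay under every ALA and Xray tumour. The slow and cardiac form Tnnc1 was below detection throughout, between -6.52 and -4.24: -5.67, -5.34, -5.63 and -5.78 in control, -5.66, -6.15, -6.35 and -5.89 in ALA, -4.24, -5.90, -6.44 and -5.71 in Xray and -6.30, -6.52, -6.13 and -6.35 in ALA+Xray tumours. Its highest reading, in Xray 1, has no order against the rest.

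The inhibitory subunit of fast fibres is Tnni2. Its level was -2.75, -2.00, 6.18 and 4.21 in control, -3.42, 0.23, -3.61 and -0.88 in ALA, 2.97, -3.18, 1.78 and -0.14 in Xray and -2.31, 3.20, 7.92 and 4.19 in ALA+Xray tumours. It was below detection only in ALA 1, and ALA+Xray 3 and control 3 were the highest. The slow form Tnni1 was -4.02, -5.11, -4.28 and -3.42 in control, -4.29, -3.86, -4.50 and -3.45 in ALA, -2.45, -3.40, -3.79 and -3.36 in Xray and -4.44, -3.11, -3.72 and -3.35 in ALA+Xray tumours. Its highest tumour was Xray 1, and control 3 was below detection; the second probe was highest in ALA+Xray 2 and Xray 1, at -2.43 and -2.46.

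Tnnt3 is the tropomyosin-binding subunit of fast troponin. Its level was -4.33, -5.07, 2.66 and 1.06 in control, -5.52, -2.37, -3.73 and -3.47 in ALA, 0.26, -4.67, -0.96 and -2.57 in Xray and -4.32, 0.35, 4.76 and 0.99 in ALA+Xray tumours. Of the 11 tumours with a detected level, ALA+Xray 3 and control 3 led, followed by control 4 and ALA+Xray 4. Its slow counterpart Tnnt1 was -2.58, -3.02, -2.41 and -2.14 in control, -2.68, -3.53, -3.35 and -2.92 in ALA, -1.32, -2.40, -2.86 and -2.15 in Xray and -3.12, -2.66, -2.31 and -2.36 in ALA+Xray tumours. Detected everywhere, it had the narrowest range of the 36 genes, with Xray 1 highest and ALA 2 lowest, and ALA+Xray 3 only 0.05 above ALA+Xray 4.

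Mylpf is the regulatory light chain of fast myosin. Its level was -0.69, -0.99, 4.31 and 2.20 in control, -1.10, -0.41, -1.11 and -0.67 in ALA, 1.54, -1.35, 0.81 and -0.41 in Xray and -0.78, 1.08, 5.99 and 2.02 in ALA+Xray tumours. It was detected in all tumours, and ALA+Xray 3 was the highest, followed by control 3. Myl2, the slow and cardiac regulatory chain, was below detection throughout: -5.83, -5.40, -5.51 and -5.90 in control, -5.52, -5.87, -5.20 and -5.32 in ALA, -5.72, -5.59, -5.97 and -5.52 in Xray and -4.90, -5.31, -3.89 and -4.87 in ALA+Xray tumours. These readings carry no order.

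Myl1 is the essential light chain of fast fibres. Its level was -4.38, -3.48, 5.56 and 3.63 in control, -5.43, -0.17, -4.58 and -0.97 in ALA, 2.35, -4.85, 1.79 and -0.37 in Xray and -4.34, 2.85, 7.20 and 3.69 in ALA+Xray tumours. ALA+Xray 3, control 3, ALA+Xray 4 and control 4 led in that order, and 6 tumours were below detection. Myl3, the slow and cardiac essential chain, had the widest range of the slow genes: -5.48, -5.12, 3.18 and 0.94 in control, -5.34, -2.70, -5.87 and -3.78 in ALA, -0.45, -5.40, -0.77 and -2.82 in Xray and -4.53, 0.20, 5.03 and 0.97 in ALA+Xray tumours. Its 3 highest tumours, ALA+Xray 3, control 3 and ALA+Xray 4, were also high for the fast genes, and its range was 10.90; the other probe, detected in all 16 tumours, ranged over 1.54 and was not higher in ALA+Xray 3 (-2.52) than in control 2 (-2.20).

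Mybpc2 is the myosin-binding protein of fast fibres. Its level was -5.45, -4.63, 4.51 and 2.10 in control, -5.51, -0.93, -4.88 and -3.78 in ALA, 0.84, -5.78, 1.50 and -0.91 in Xray and -4.17, 2.59, 6.65 and 2.58 in ALA+Xray tumours. Detected in 9 tumours, it was highest in ALA+Xray 3 and control 3. Mybpc1, named for slow muscle though fast fibres also hold it, was -5.64, -5.37, -2.25 and -3.91 in control, -5.58, -6.19, -6.37 and -5.84 in ALA, -3.80, -5.90, -5.96 and -5.62 in Xray and -6.05, -6.46, -1.07 and -5.07 in ALA+Xray tumours. It was detected only in control 3 and ALA+Xray 3, the 2 tumours highest for most of the genes.

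Atp2a1, the calcium pump of fast fibres, was -1.80, -2.21, 0.39 and -0.89 in control, -1.58, -1.65, -1.66 and -1.50 in ALA, -1.71, -1.76, -1.55 and -1.85 in Xray and -1.98, -1.32, 1.01 and -1.32 in ALA+Xray tumours by its brighter probe. That probe was detected everywhere and ranged over 3.22, and the second, detected in 7 tumours, ranged over 9.55 with ALA+Xray 3 (3.22) and control 3 (2.01) highest. Both probes put the same 2 tumours first.

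Parvalbumin, Pvalb, buffers calcium in fast fibres. Its level was -5.69, -5.36, 1.24 and -1.18 in control, -5.21, -5.75, -6.36 and -5.90 in ALA, -4.06, -5.92, -3.03 and -5.75 in Xray and -6.32, -1.45, 3.55 and -0.65 in ALA+Xray tumours. Its 6 detected levels were in control 3 and 4, Xray 3, and ALA+Xray 2, 3 and 4. The gene Actn3, the alpha-actinin of fast fibre Z discs, was -5.52, -5.19, 2.88 and 0.70 in control, -5.64, -2.43, -6.00 and -3.34 in ALA, -0.47, -5.69, -0.25 and -3.00 in Xray and -5.24, 0.32, 4.52 and 0.66 in ALA+Xray tumours. Each group held both detected and undetected tumours, 10 detected in all.

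Among the shared genes, Acta1 encodes skeletal alpha-actin, the thin filament. Its level was -3.23, -2.85, 5.02 and 3.34 in control, -1.45, -0.97, -2.88 and -1.69 in ALA, 2.70, -3.71, 1.30 and -0.60 in Xray and -3.19, 1.86, 5.93 and 2.73 in ALA+Xray tumours. It was detected in all tumours but Xray 2, led by ALA+Xray 3, control 3 and control 4, with ALA+Xray 4 and Xray 1 next at nearly the same level. Ckm, the muscle creatine kinase, was -5.60, -5.22, 3.07 and 0.60 in control, -5.67, -3.74, -5.54 and -5.29 in ALA, -1.93, -5.79, -1.56 and -4.32 in Xray and -6.22, 0.16, 4.12 and 0.64 in ALA+Xray tumours. The 7 tumours with a detected level included 0 of the ALA group.

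Myoglobin, Mb, stores oxygen and is richest in oxidative fibres. Its level was -5.63, -5.41, 1.06 and -0.37 in control, -5.56, -5.89, -6.39 and -5.60 in ALA, -0.83, -5.88, -2.14 and -3.71 in Xray and -4.88, -3.17, 2.10 and -1.69 in ALA+Xray tumours. It was below detection in all 4 ALA tumours, in control 1 and 2, in Xray 2 and 4, and in ALA+Xray 1. Titin, Ttn, is the elastic filament of the sarcomere, and was -5.47, -5.38, 0.047 and -1.74 in control, -5.35, -4.71, -6.29 and -5.64 in ALA, -3.27, -5.66, -3.84 and -5.48 in Xray and -5.02, -2.81, 1.04 and -2.78 in ALA+Xray tumours. The same 7 tumours as for Ckm had it. Of the 8 probes of Ttn, 5 were detected in 0 tumours.

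Nebulin, Neb, sets thin filament length. Its level was -5.49, -5.17, 0.28 and -1.71 in control, -1.84, -4.46, -6.31 and -5.89 in ALA, -3.21, -5.73, -3.49 and -5.47 in Xray and -5.57, -2.86, 1.34 and -2.55 in ALA+Xray tumours. ALA 1 stood out from its group here at -1.84, which its 4 other probes did not share, all being below detection in that tumour. Desmin, Des, the intermediate filament of all muscle, was -2.38, -2.71, 1.40 and 0.13 in control, -2.09, -1.98, -2.37 and -1.89 in ALA, 0.17, -1.87, -0.65 and -1.57 in Xray and -1.94, -0.94, 2.16 and -0.87 in ALA+Xray tumours. Every tumour had a detected level, and the groups overlapped.

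Tpm2, beta-tropomyosin, which smooth muscle also makes, was -0.19, -0.14, 2.03 and 1.07 in control, 1.05, -0.22, -0.15 and -0.33 in ALA, 0.76, -0.62, 0.17 and 0.31 in Xray and -0.30, 0.56, 2.41 and 1.81 in ALA+Xray tumours. Eno3, the muscle enolase of glycolysis, was 3.94, 4.48, 4.85 and 4.48 in control, 3.83, 3.86, 4.74 and 4.24 in ALA, 3.80, 4.15, 4.19 and 4.31 in Xray and 3.61, 3.52, 6.48 and 3.16 in ALA+Xray tumours. Both were detected in all tumours; Eno3 was bright throughout and stood out only in ALA+Xray 3, and Tpm2 was also high in ALA 1.

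Tcap encodes telethonin, which caps titin at the Z disc; its probe lies at chr11:98246127-98246186 (mm9). Its level was -4.43, -5.43, 4.01 and 1.34 in control, -5.56, -2.20, -6.41 and -5.71 in ALA, 0.79, -5.90, -0.17 and -2.08 in Xray and -3.54, 1.65, 6.78 and 2.70 in ALA+Xray tumours. It was below detection in 3 of 4 ALA tumours and detected in all ALA+Xray tumours, though ALA 2 lay above ALA+Xray 1, so these groups overlapped.

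The remaining tested genes, by range over the 16 arrays, were Myoz1 (8.83), Myom2 (11.82), Trdn (9.99), Myot (9.61), Ckmt2 (8.79), Smpx (8.58), Ldb3 (6.29), Myom1 (6.14), Actn2 (5.98), Ryr1 (2.56) and Pygm (2.38), and the untested Casq1 ranged over 5.54. Myoz1, Myot and Ldb3 are Z disc proteins, Myom1 and Myom2 belong to the M band, Trdn anchors calcium release, and Ckmt2 is the mitochondrial creatine kinase. Each of these was highest in ALA+Xray 3 except Ryr1, the calcium release channel, which was highest in ALA 3. That too depended on the probe: the 2 other probes of Ryr1 were highest in ALA+Xray 3 (1.67 and 2.15), with ranges of 7.19 and 5.65.

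Group differences were tested for all 15399 genes past the filter, with limma fits to the 4 group means and Benjamini-Hochberg adjustment at 0.05. Nothing in the labels says more of how the tumours were drawn than that each sample is a tumour preparation, so the p-values speak of the spread between these samples. The comparisons share groups with each other and are not independent.

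In Xray against control tumours, 0 of the 36 muscle genes passed, where 3.37% of all genes did (1.99% higher, 1.38% lower). The median difference was -0.58 (all genes -0.02), with 5 genes above and 31 below 0. The smallest adjusted p was 0.164, for Tnni1, which was 0.96 ± 0.39 (SE) higher in Xray tumours, and it was also the 1 gene of 36 with an unadjusted p under 0.05, against 21.9% of all genes. Within slides 1 to 4 the median difference was 3.06, -0.34, -3.52 and -3.44, so the slides did not share a direction. Without control 3 the fitted median was 0.53, without control 4 it was 0.11, and without Xray 2 it was 0.098, while without control 1, control 2, Xray 1 or Xray 3 it was -1.72, -1.72, -1.25 and -0.99.

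In ALA against control tumours, 0 of 36 passed, as did 0% of all genes. The median was -2.33 (all genes -0.0026), with 34 of 36 genes below 0, and 0 had an unadjusted p under 0.05 (6.24% of all genes). Myh4 differed by -4.24 ± 2.71 (SE), Tcap by -3.84 ± 2.31 and Acta1 by -2.32 ± 2.06, each difference less than 2 standard errors. Ckmt2 (-3.33 ± 1.61) and Mb (-3.28 ± 1.63) lay just over 2 standard errors. The smallest adjusted p was 0.797 by limma, for Ckmt2. The 4 ALA tumours were all low and 2 of 4 control tumours were as low: within slides the median was 0.0023 and 0.84 on slides 1 and 2, and -6.75 and -3.97 on slides 3 and 4. Without control 3 the fitted median was -0.999, and without slide 3 it was -0.73.

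In ALA+Xray against Xray tumours, 0 of 36 passed, beside 2.07% of all genes (1.30% higher, 0.766% lower). The median was 1.94 (all genes -0.085), with 30 of 36 above 0. Ckmt2 came nearest at 3.74 ± 1.61 (SE) and adjusted p = 0.188 by limma; it was detected in 3 of 4 ALA+Xray and 0 of 4 Xray tumours, which bounds it at 2.81-fold or more. It was the 1 gene with an unadjusted p under 0.05 (23.2% of all genes). By slide the medians were -3.12, 3.09, 4.80 and 2.90. Without ALA+Xray 1, or without slide 1, 2 genes passed, Ckmt2 and Pvalb, where 20.4% and 19.4% of all genes did. The median was 0.59 without ALA+Xray 3, 1.21 without Xray 2 and 3.08 without ALA+Xray 1.

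In ALA+Xray against ALA tumours, 1 of 36 passed, which is 2.78%, beside 24.1% of all genes. This was Tcap, 6.86 ± 2.31 (SE) higher in ALA+Xray, with adjusted p = 0.0442 by limma. The median was 3.29 (all genes -0.13), and 15 of 36 had an unadjusted p under 0.05, against 39.6% of all genes. Of the 36 genes 35 were above 0, the exception being Ryr1 (-0.33) by its brightest probe. The other probes of Ryr1 were highest in ALA+Xray 3. Over the fast genes the median was 4.22, over the shared genes 2.76 and over the slow genes 1.06. The median over the 36 was 1.94 without ALA+Xray 3 and 1.68 without slide 3. Over the 10 genes with a probe detected on all arrays it was 0.60, where Myl3 was read by its other probe (range 1.54).

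The next largest differences in that comparison did not pass: Myh4 at 6.77 ± 2.71 (adjusted p = 0.0805), Mybpc2 at 5.69 ± 2.49 (0.106) and Tnni2 at 5.17 ± 2.25 (0.104), by limma. With the slide, which is also the replicate number, as a block, 3 of 36 genes passed, where 26.6% of all genes did: Tcap (adjusted p = 0.0384 by limma), Pvalb (0.0416) and Myh4 (0.0439). The block left the count at 0 in the other 4 group comparisons and the interaction. Pvalb, Ckm, Myot and Mb were below detection in every ALA tumour and detected in 3 of 4 ALA+Xray tumours, which puts them at least 5.83-fold, 10.5-fold, 5.58-fold and 3.61-fold higher there, with adjusted p between 0.0707 and 0.109. Ckmt2, Ttn and Ldb3 had the same detection with smaller bounds, at least 2.94-fold, 2.58-fold and 1.6-fold, and did not pass either. At the other end Eno3 differed by 0.024 ± 0.54 and Atp2a1 by 0.70 ± 0.57.

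The call for Tcap depended on single tumours. Without ALA+Xray 3 the limma fit gave a difference of 5.24 and adjusted p = 0.137, and leaving out ALA 1, 3 or 4, ALA+Xray 2 or 4, control 4, or Xray 3 or 4 also lifted it above 0.05. Leaving out ALA+Xray 1, the tumour of its group with the lowest muscle level, gave 19 genes instead of 1, all higher in ALA+Xray, with 37.8% of all genes passing. Within slides the median over the 36 genes was -0.25, 2.39, 8.49 and 3.33, with 16, 34, 35 and 32 genes above 0.

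In ALA+Xray against control tumours, 0 of 36 passed, beside 24.9% of all genes (9.77% higher, 15.1% lower), and 0 had an unadjusted p under 0.05 (39.9% of all genes). The median was 0.78 (all genes -0.079), with 30 of 36 above 0, and without ALA+Xray 3 it was -0.22; without control 1 to 4 it was 0.13, 0.14, 1.90 and 1.34, and without ALA+Xray 1 it was 1.97. Tnni1 had the smallest adjusted p, 0.305. By slide the medians were -0.09, 2.78, 1.31 and -0.38. Tcap differed by 3.02 ± 2.31 and Acta1 by 1.26 ± 2.06 (SE).

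The interaction of ALA and irradiation, the effect of irradiation with ALA minus that without it, passed for 0 of 36 genes, beside 1.23% of all genes (0.896% above 0, 0.331% below). Its median was 4.00 (all genes -0.10), with 34 of 36 above 0 and 9 at an unadjusted p under 0.05 (19.1% of all genes). Ckmt2 had the smallest adjusted p, 0.126, at 7.07 ± 2.28 (SE). Without slide 1, 5 genes passed, where 8.70% of all genes did: Ckm, Ckmt2, Myot, Pvalb and Tpm2. The median was 6.78 without that slide and 1.43 without slide 3, and without ALA+Xray 3 alone it was 2.66.

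**Figure D4:**
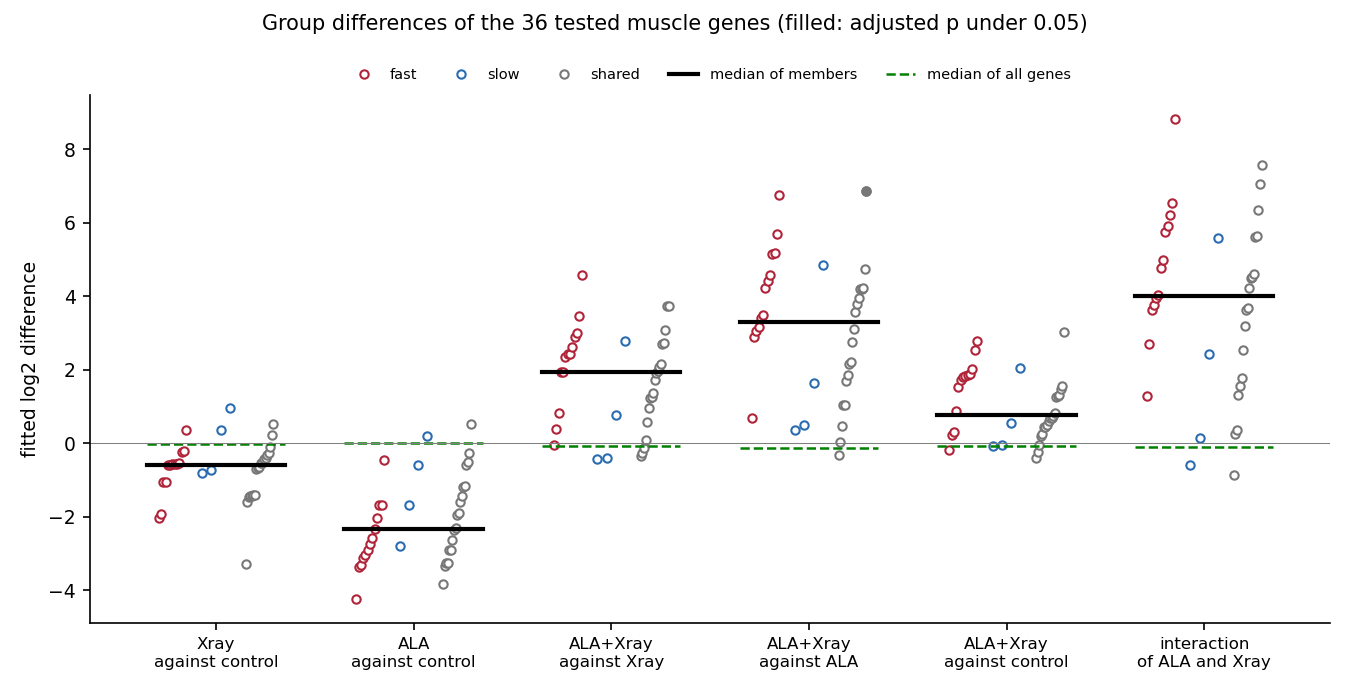
Fitted log2 difference of the 36 tested muscle genes in the 5 group comparisons and the interaction, by class; black bars are their median, dashed green bars the median of all genes, and a filled point passed at adjusted p under 0.05. The members' medians are -0.58, -2.33, 1.94, 3.29, 0.78 and 4.00 from left to right, and the 1 filled point is Tcap.

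Muscle genes outside the 40 were high in the same tumours. Of 42 further skeletal muscle genes 36 passed the filter, and their level ran from -1.07 in ALA 3 to 3.61 in ALA+Xray 3, with 2.49 in control 3. In ALA+Xray against ALA 3 of the 36 (8.33%) passed, where 24.1% of all genes did, and were higher: Ampd1, the AMP deaminase of muscle (at least 3.32-fold, limma adjusted p = 0.0344, below detection in all ALA tumours), and the respiratory chain subunits Cox8b (3.66 ± 1.23, SE) and Cox7a1 (1.52 ± 0.42). Cox7a1 also passed against control, at 1.64 ± 0.42. Its level was 2.51, 1.68, 2.48 and 1.50 in control, 1.96, 2.43, 1.71 and 2.55 in ALA, 3.24, 3.90, 3.11 and 3.96 in Xray and 3.55, 3.20, 5.14 and 2.83 in ALA+Xray tumours. All 8 irradiated tumours lay above all 8 others for this probe.

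Genes of muscle development differed in detection. Of 14 such genes, Myod1, Myf5 and Pax7, which mark muscle precursors, and Chrng, the fetal acetylcholine receptor subunit, were detected in 0 tumours. Myf6, the regulator kept on in adult fibres, was detected in 6 and highest in ALA+Xray 3 (1.42), and Myog in 5, highest in control 4 (-1.03). The probe that stands for Myh8, the neonatal heavy chain, was -4.16, -2.97, 6.39 and 4.39 in control, -5.70, 0.25, -6.30 and -1.02 in ALA, 2.79, -5.71, 3.07 and 0.65 in Xray and -3.19, 4.19, 7.73 and 4.40 in ALA+Xray tumours. ALA+Xray 3 and control 3 were highest, and Xray 1 minus Xray 3 was -0.28, beside -5.65 for Myh4; the probe shares a run of 19 bases with the Myh1 probe, and the other Myh8 probe was detected in 0 tumours, so which transcript it reports was not tested. Mef2c and Pax3 were lower in ALA+Xray than in ALA tumours by limma, with differences of -0.58 ± 0.19 and -1.15 ± 0.21 (SE). They were 20% of the 10 genes tested from this list, beside 24.1% of all genes. Both were detected in all 16 tumours and did not follow the muscle genes. Mef2c was highest in control 2 and Pax3 in control 1, where the muscle level was -1.10 and -1.33.

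Markers of other tissues that can lie beside or within a tumour were read on the same arrays. Heart markers were mostly missing: Myl7 was detected in 0 tumours, Myh6 and Ryr2 in 1 each, and 4 of 10 passed the filter. Of these, Nppb (1.59 ± 0.45) and Tnnt2 (1.62 ± 0.55, SE) were higher in ALA+Xray than in ALA tumours. So was Casq2 (at least 1.46-fold, limma adjusted p = 0.0176, below detection in all ALA tumours). These calls were 75% of the 4 tested, beside 24.1% of all genes. The other tested marker, Actc1, was detected in all 16 tumours, was highest in ALA 1 and differed by -0.61 without passing. Nppb was also higher in Xray than in control tumours (adjusted p = 0.0409 by limma). The median level of the smooth muscle markers (8 of 10) spread over 0.81 log2 units, with single genes ranging from 0.86 (Cald1) to 4.70 (Cnn1). In ALA+Xray against ALA, Lmod1 was higher (0.90 ± 0.29, SE) and Actg2 lower (-0.83 ± 0.23), and Lmod1 was also higher in Xray than in control tumours (1.55 ± 0.29, adjusted p = 0.0208 by limma). That of Schwann cell markers (4 of 7) spread over 0.67, and Mbp (-0.78 ± 0.23, SE) was lower in ALA+Xray than in ALA tumours. Of 7 tendon markers 3 passed, led by Thbs4 (range 9.43, highest in control 3 at 3.11) and Scx (4.13, highest in ALA+Xray 3), while Tnmd, Mkx and Comp were detected in 0.

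Fat and skin markers had their highest values in other tumours than the muscle genes. Adipocyte markers (6 of 10) were highest in ALA 2 (2.65), ALA+Xray 2 (2.29) and ALA+Xray 4 (1.81), and at -0.97 in ALA+Xray 3, where muscle was highest. Cfd ranged over 10.56, Adipoq over 7.45 and Cidec over 6.95. Keratinocyte markers (3 of 8) were highest in ALA+Xray 4 (3.17). The summed signal of the 9 fibroblast and matrix markers, with the 75th percentile as 1, spanned 27.5 to 106 over the control tumours. For ALA the bounds were 16.0 and 98.9, for Xray 29.3 and 69.3, and for ALA+Xray 59.7 and 423. Endothelial markers (7 of 7) spread over 1.45.

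Beside the 1 muscle gene that passed in ALA+Xray against ALA, 9 of 9 macrophage markers and 8 of 9 fibroblast and matrix markers passed. Of all genes, 24.1% passed there in either direction. The markers that passed were all higher in ALA+Xray, and the list medians were 3.54 and 2.36. The macrophage level was -1.77, -0.72, -2.93 and -1.93 in ALA and 0.75, 2.30, 2.15 and 2.72 in ALA+Xray tumours, with no overlap, and ALA+Xray 1, which had the lowest fast level of all tumours, was above every ALA tumour. The part of these cell types, or of the share of host tissue in the sample, in the muscle gene differences was not tested.

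**Figure D5:**
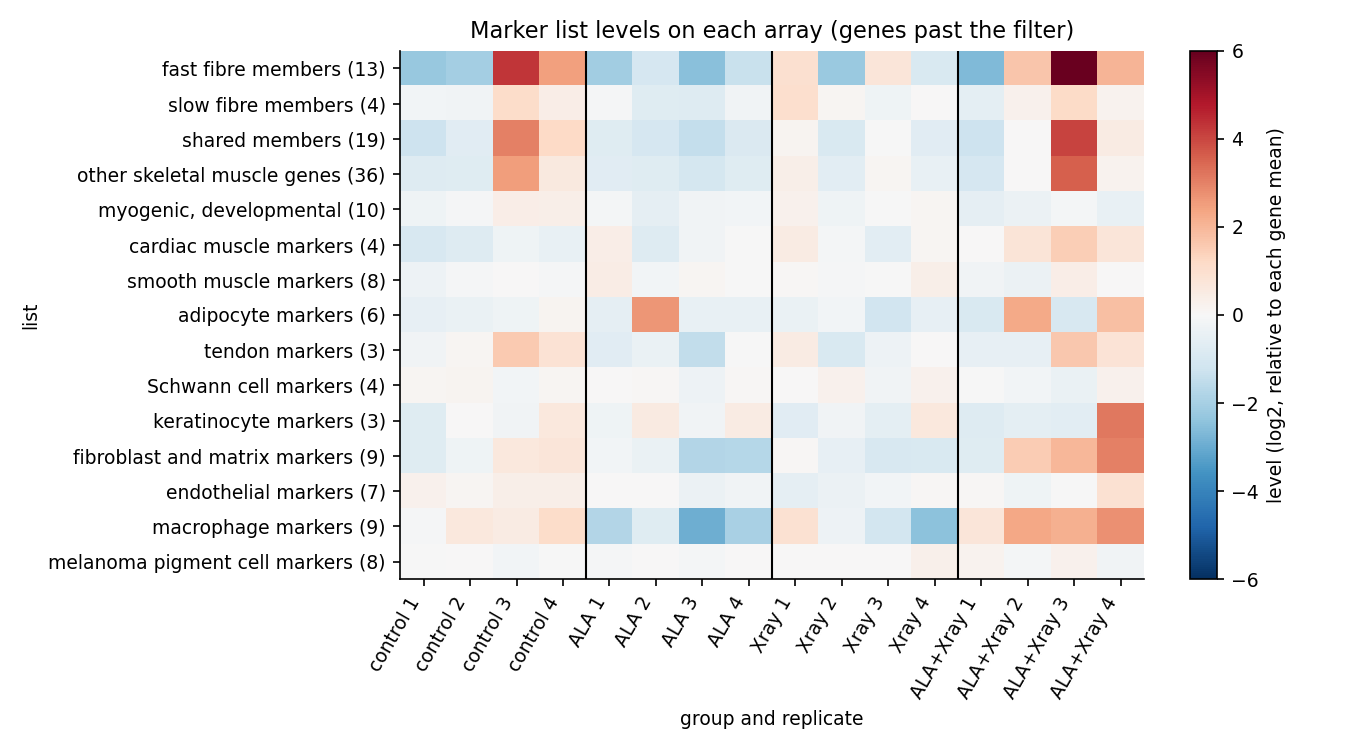
Level of each marker list (rows, with the number of genes past the filter) on the 16 arrays (columns), as the median over genes of the log2 signal minus the gene's mean over 16 arrays. The 3 muscle member lists and the other skeletal muscle genes share their high arrays, ALA+Xray 3 and control 3, while adipocyte markers are highest in ALA 2 and macrophage markers in ALA+Xray 4.

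The balance of fast against slow genes, the fast level minus the slow level, was -2.12, -1.83, 3.19 and 2.06 in control, -2.01, -0.27, -1.74 and -1.16 in ALA, -0.073, -2.33, 0.96 and -0.96 in Xray, and -2.09, 1.40, 4.80 and 1.84 in ALA+Xray tumours. Its group means were 0.32 ± 2.70, -1.30 ± 0.77, -0.60 ± 1.40 and 1.49 ± 2.82 (SD, n = 4), and the groups overlapped. The same 13 fast genes are among the 36 of the muscle level, and 3 of the 4 slow genes had narrow ranges (Tnnt1 2.21, Tnni1 2.66 and Myh7 4.61), so the balance is not separate from the fast level. Xray 1, with a muscle level of 0.89, had a balance near 0. Its slow level of 1.01 was close to the 1.10 of control 3 and 1.13 of ALA+Xray 3, but different genes were high. Tnnt1 and Tnni1 were highest in Xray 1, at -1.32 and -2.45. Myl3 was -0.45 in Xray 1, beside 3.18 in control 3 and 5.03 in ALA+Xray 3. Myh7 was below detection in Xray 1, beside -1.33 in control 3 and -1.37 in ALA+Xray 3. The close slow levels therefore do not show alike expression of the slow genes.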

How the data were processed

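Agilent Feature Extraction made the spot values, per the file headers (version 10.7.3.1; the submitters' processing notes name 9.5.3.1). The deposited intensity values, per the file headers, are background-subtracted processed signals with mean and background signals beside them, and other deposited columns are flags for detection, saturation and outlier spots. The authors' deposited value table also holds intensity values and was used as an alternative; how it was normalized is not given in the sources used here. Here, outlier spots were dropped (39 probes lost a whole array and were left out, 1 of them a muscle gene's), spots of a probe were averaged, log2 of the processed signal was taken, and each array's 75th percentile over 43379 non-control spots was subtracted. A probe was detected where at least 50% of its spots were well above background, and 4 arrays of detection were required. For a gene with several probes the brightest on average was used. limma 3.58.1 in R 4.3.3 fitted the 4 group means over 15399 genes (12 residual and 2.35 prior degrees of freedom), with Benjamini-Hochberg adjustment at 0.05; it was tested on simulated data. The number of arrays limits the precision. Names of probes came from the files, updated by accession or symbol through RefSeq tables.

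Values on every array are given for the paired fast and slow isoforms, the main fibre, calcium and energy genes, Tcap, Cox7a1 and Myh8. The other muscle genes, Pygm and Ryr1 among them, are given by range. Other lists are given by counts and selected genes. Called genes of those lists other than Cox7a1 are not given on every array. The genes and lists were chosen with earlier results of these data known. Where a group was below background throughout, a fold is a lower bound, formed against the dimmest detected signal on each array. Alternatives changed background correction, scaling, the filter, the probe rule, the moderation, weights, the samples fitted, the block and the samples left out. Single-gene results for some Schwann cell markers are not reported here.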

Additional observations from a re-analysis of the deposited data

Results flagged for a closer look

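Within a group of 4 tumours, 5 of 152 gene and group combinations had 1 tumour far from the other 3 by Dixon's gap test, where chance gives about 1 in 20. Eno3 was 6.48 in ALA+Xray 3, with the others between 3.16 and 3.61. Pygm was 0.43 in control 3, with the others between -0.18 and -0.097. Tpm2 was 1.05 in ALA 1, with the others between -0.33 and -0.15. Ryr1 was -2.69 in control 1, with the others between -1.25 and -1.02. Actn2 was -2.26 in ALA 3, the 1 tumour of its group where it was detected, with the others between -6.00 and -5.43.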

How the results depend on the processing

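No alternative reversed a called result. For ALA+Xray against ALA the count of 1 muscle gene was 0 with no filter, with trend and robust moderation and with only the arrays compared, 5 with array weights, and 0 to 19 with samples left out; the cause was not tested. Array weights gave 2 for the interaction, where leaving samples out gave 0 to 5. For ALA+Xray against Xray leaving samples out gave 0 to 2, and against control 0 to 1 (Eno3, lower, without ALA+Xray 3). The mean of all probes gave 1 gene, Tnni1, in Xray against control and 1 in ALA+Xray against control, and no filter gave 1, Myl2, in the latter. Over the 10 genes with a probe detected on all arrays the median difference was 0.60 for ALA+Xray against ALA and 0.82 for the interaction. Myl3 was read there by its other probe. The interaction median over the 36 genes spanned 1.43 to 6.78 with samples left out. The ALA muscle level was -0.78 with normexp background, -0.48 over genes detected on all arrays, -1.63 with no floor, and -1.68 to -0.56 with samples left out. The control muscle level was -0.032 without control 3 and the ALA+Xray level 0.25 without ALA+Xray 3.

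With the replicate number, and so the slide, as a block, 3 genes (Myh4, Pvalb and Tcap) passed in ALA+Xray against ALA, beside 26.6% of all genes, and the block changed no other count over the 36. Same-numbered tumours correlated between -0.46 and 0.54 in their deviations, over 0.1 in 9 of 24 pairs, beside 20 of 72 other pairs; tumours with the same number share a slide. Signal over background limits what can be read: a level below detection gives only a bound. Of the 40 genes, 26 were detected on 4 to 15 arrays and 2 on 1 to 3 arrays.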
